A study of Danio rerio with 4 samples.

Results

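The nr2f genes encode the COUP-TF group of orphan nuclear receptors, and they were followed across 4 RNA-seq libraries of zebrafish (Danio rerio) pharyngeal arch cells. Members were taken by gene symbol. The symbols nr2f1a, nr2f1b, nr2f2, nr2f5, nr2f6a and nr2f6b each matched 1 row, so the family makes up 6 of the 31953 genes in the table. All 6 had a mean of at least 1 RPM and were among the 11391 genes tested.

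All 4 libraries came from cells sorted for fli1a:GFP and sox10:DsRed together, from embryos with the form of the 36 hpf (hours post-fertilization) stage, which had been moved from 28.5 °C to 22 °C at 27 hpf to slow them. Embryos mutant for nr2f2 and nr2f5 gave 2 libraries (mutant 1 and mutant 2), and were recognised by ocular coloboma, a gap in the eye. Embryos with sox10:Gal4 gave 1 control library, and embryos with sox10:Gal4 and UAS:Nr2f5 gave 1 library in which Gal4, under sox10 control, is meant to drive Nr2f5. Each library pooled many embryos, 69 for the control, 84 for UAS:Nr2f5, and 37 and 84 for the mutants, without a plain statement of which mutant library had which number. The labels describe neither the mutant alleles nor the species of the Nr2f5 transgene, and they give the mutants neither the driver nor the fin biopsy taken from the other embryos at 24 hpf. The control and UAS:Nr2f5 groups have no replicates, and nothing says that the mutant libraries came from separate clutches, so their spread may be technical.

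Nr2f receptors sit on DNA as dimers, either with one another or with the retinoid X receptors (Rxr), and in most settings they lower transcription through corepressor complexes. In vertebrate embryos their genes respond to retinoic acid, and they are known from vein identity, the heart atria, the eye and the forebrain. The study's title places them in the identity of the upper jaw. The gene nr2f5 is found in fish and has no mammalian counterpart, nr2f1a and nr2f1b are a duplicated pair related to mammalian COUP-TFI, nr2f2 corresponds to COUP-TFII, and nr2f6a and nr2f6b to EAR2.

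Values are given as RPM, the number of reads counted for a gene in each 1000000 of a library. That scale is an assumption. Values are not divided by gene length, so levels are compared between libraries for 1 gene at a time. Where levels are ranked or summed over genes, they stand for reads and not for transcript numbers. The steps between values imply 34787206 and 22677739 reads in the mutants, 29943419 in the control and 10127922 in UAS:Nr2f5, the shallowest library. Intervals are 95% counting intervals on these implied reads and leave out differences between embryos or preparations.

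The libraries differed in their levels of cell type markers. The arch crest list (fli1a, sox10, tfap2a, dlx2a and others) had none of its 10 measured genes at 0 in any library. The muscle, neuronal, epidermal and red blood cell lists also had none at 0 in the control and UAS:Nr2f5, so this does not check the tissue. Arch crest genes had summed levels of 335 and 333 RPM in the mutants, 229 in the control and 153 in UAS:Nr2f5. Muscle genes summed to 35.1 and 54.2 RPM in the mutants, 1330 in the control and 4160 in UAS:Nr2f5. Neuronal genes summed to 10.1 and 9.0 RPM in the mutants, 80.3 in the control and 102 in UAS:Nr2f5. Epidermal genes summed to 190 and 160 RPM in the mutants, 634 in the control and 1720 in UAS:Nr2f5. Most of the sum in the mutants was krt8, which went the other way from the list. It stood at 131 and 129 RPM in the mutants, 98.7 in the control and 89.0 in UAS:Nr2f5. Red blood cell genes summed to 129 and 59.3, 515 and 414 RPM in the same order. The part of these cells in the nr2f differences below was not tested, and in bulk RNA fewer cells of a type and less RNA per cell cannot be told apart.

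The mutated gene nr2f5 had the largest differences of the family in both mutant comparisons. It stood at 12.2 RPM in mutant 1 (424 reads), 14.7 in mutant 2 (333 reads), 28.8 in the control (863 reads) and 30.3 in UAS:Nr2f5 (307 reads). Both mutants were low, the control and UAS:Nr2f5 were high, and the mutants did not overlap either of the others. The mutant mean of 13.4 ± 1.77 RPM (SD, n = 2) was 2.15-fold below the control and 2.26-fold below UAS:Nr2f5.

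Against the control, nr2f5 lay −1.05 ± 0.20 (SE) apart on the log2(RPM + 1) scale in limma's fit, with an adjusted p of 0.0910 over all genes, so the call was missed. Fitted without the UAS:Nr2f5 library, on the 11009 genes then past the filter, the same difference passed (limma adjusted p = 0.000468). It also passed when genes below a mean of 5 RPM were left out (limma adjusted p = 0.000162), and over all the alternatives tried the adjusted p ran from 0.000162 to 0.266. Of all tested genes, 6.22% had a lower difference than nr2f5 in this comparison, and 33.2% lay below the control in both mutants.

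Against UAS:Nr2f5, nr2f5 fell by 1.12 ± 0.20 (SE) in the mutants on the log2(RPM + 1) scale, and this passed (limma adjusted p = 0.0195). The call was lost without a filter on low values (limma adjusted p = 0.171) and without limma's intensity trend (adjusted p = 0.0642). Of all tested genes, 8.92% were called lower in the mutants than in UAS:Nr2f5.

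The library labelled UAS:Nr2f5 did not stand apart from the control at nr2f5 itself in RPM, while under scaling to the arch crest list the difference went from 0.07 to 0.69 on the log2(RPM + 1) scale. In RPM the ratio of its level to the control was 1.05, with a counting interval of 0.920 to 1.20. At this depth a difference within that interval was not detectable. The sources used here do not say whether transgene reads would be assigned to nr2f5, so this level does not check the label.

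The second mutated gene, nr2f2, known for vein identity in mouse and zebrafish, stood at 38.9 RPM in mutant 1 (1352 reads), 30.9 in mutant 2 (701 reads), 41.4 in the control (1239 reads) and 28.1 in UAS:Nr2f5 (285 reads). Mutant 1 was near the control and mutant 2 was nearer to UAS:Nr2f5. Mutant 1 was at 0.939 of the control (0.869 to 1.02), within counting error, while mutant 2 was at 0.747 of it (0.680 to 0.820). The mutant mean of 34.9 ± 5.62 RPM (SD, n = 2) gave a difference of −0.25 ± 0.20 (SE) to the control on the log2(RPM + 1) scale (limma adjusted p = 0.692). Scaled to the arch crest list, this difference grew to −0.78 and was still not called. In RPM, levels of nr2f2 differed 1.26-fold (1.15 to 1.38) between the mutants. That was more than between mutant 1 and the control, and less than between mutant 2 and the control (1.34-fold, 1.22 to 1.47).

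The UAS:Nr2f5 library had the lowest nr2f2 level of the 4 on the RPM scale, an order that did not hold when libraries were scaled to the arch crest list. It was at 0.680 of the control (0.596 to 0.774), and it did not differ from mutant 2 beyond counting error (0.910 of it, 0.790 to 1.05). Under that scaling the difference of UAS:Nr2f5 to the control turned from −0.54 to 0.08 on the log2(RPM + 1) scale, and that of the mutants to UAS:Nr2f5 from 0.29 to −0.86.

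**Figure D1:**
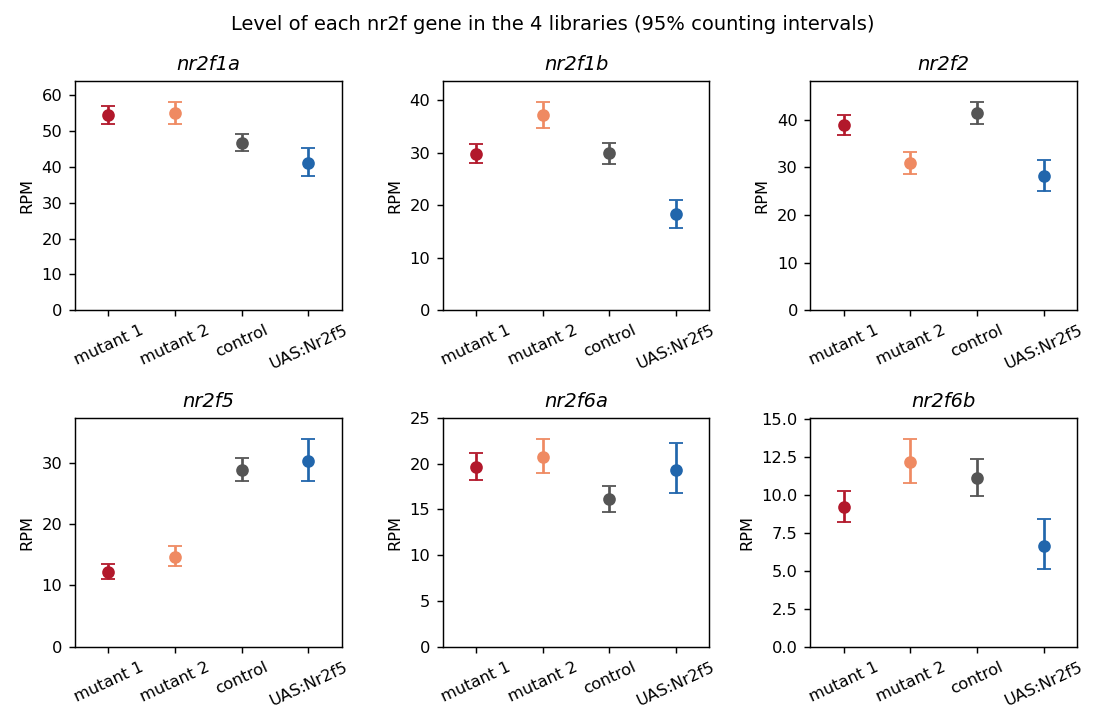
Level of each nr2f gene, in RPM on a linear axis from 0, in mutant 1, mutant 2, the control and UAS:Nr2f5. Points are single libraries and bars are 95% counting intervals. For nr2f5 the mutants sit at 12.2 and 14.7 RPM and the other libraries at 28.8 and 30.3. On this scale nr2f1a, nr2f1b, nr2f2 and nr2f6b are lowest in UAS:Nr2f5, though not when scaled to the arch crest list.

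Of the nr2f1 pair, nr2f1a, which acts in the heart atria of zebrafish, stood at 54.6 RPM in mutant 1 (1899 reads), 55.1 in mutant 2 (1249 reads), 46.8 in the control (1401 reads) and 41.3 in UAS:Nr2f5 (418 reads). In RPM the mutants were the highest, and they differed from each other by less than counting error. Their mean of 54.8 ± 0.344 RPM (SD, n = 2) was 1.17-fold above the control, a difference of 0.22 ± 0.16 (SE) on the log2(RPM + 1) scale that did not pass (limma adjusted p = 0.653) and turned to −0.31 when scaled to the arch crest list. UAS:Nr2f5 was at 0.882 of the control (0.789 to 0.985), and this difference of −0.18 on the log2(RPM + 1) scale also turned, to 0.45, under the crest scaling.

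Its duplicate nr2f1b stood at 29.8 RPM in mutant 1 (1038 reads), 37.1 in mutant 2 (842 reads), 29.9 in the control (895 reads) and 18.3 in UAS:Nr2f5 (185 reads). Mutant 1 and the control were alike within counting error, mutant 2 was higher, and UAS:Nr2f5 was below the other 3 in RPM. UAS:Nr2f5 was at 0.611 of the control (0.519 to 0.717), a difference of −0.68 on the log2(RPM + 1) scale that shrank to −0.07 under the crest scaling. The mutants differed from the control by 0.15 ± 0.20 (SE) on the log2(RPM + 1) scale (limma adjusted p = 0.831), which turned to −0.38 under the crest scaling.

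Against UAS:Nr2f5, nr2f1b was the only member called higher in the mutants, by 0.83 ± 0.20 (SE) on the log2(RPM + 1) scale (limma adjusted p = 0.0387). There 11.2% of all tested genes were called higher. The call was lost under median-ratio scaling (adjusted p = 0.0742), without the trend (0.120), with a pseudocount of 0.1 (0.0621) and without the filter (0.238). Scaled to the arch crest list the difference was −0.31 and missed the threshold (limma adjusted p = 0.227). In RPM nr2f6b (0.61), nr2f1a (0.40), nr2f2 (0.29) and nr2f6a (0.06) were also higher in the mutants than in UAS:Nr2f5, without a call. All of these turned below 0 under the crest scaling.

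The EAR2-like gene nr2f6a varied least in RPM, though not under the crest scaling. It stood at 19.6 RPM in mutant 1 (683 reads), 20.8 in mutant 2 (471 reads), 16.1 in the control (482 reads) and 19.4 in UAS:Nr2f5 (196 reads). The control was the lowest library in RPM and the other 3 did not differ from one another beyond counting error. The mutant mean of 20.2 ± 0.803 RPM (SD, n = 2) differed from the control by 0.31 ± 0.19 (SE) on the log2(RPM + 1) scale (limma adjusted p = 0.577), and by −0.21 under the crest scaling. UAS:Nr2f5 was at 1.20 times the control (1.01 to 1.42), a difference of 0.25 on the log2(RPM + 1) scale that went to 0.87 under the crest scaling.

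Its duplicate nr2f6b, with the fewest reads of the family, stood at 9.20 RPM in mutant 1 (320 reads), 12.2 in mutant 2 (276 reads), 11.1 in the control (332 reads) and 6.62 in UAS:Nr2f5 (67 reads). The mutants lay on either side of the control and UAS:Nr2f5 was below all 3 in RPM, though above the mutants under the crest scaling. UAS:Nr2f5 was at 0.597 of the control (0.452 to 0.778), a difference of −0.67 on the log2(RPM + 1) scale that shrank to −0.10 under the crest scaling. The mutants differed from the control by −0.06 ± 0.27 (SE) (limma adjusted p = 0.961), which grew to −0.56 under the crest scaling.

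Counted over the family, limma called 0 of 6 members between the mutants and the control, where it called 1.04% of all genes, and 1 member (nr2f5) had an unadjusted p under 0.05 (0.00207), as 13.2% of all genes did. Both mutants lay on the same side of the control for 4 of 6 members, against 72.3% of all genes. Those were nr2f1a and nr2f6a above it (39.1% of all genes), which under the crest scaling turned, and nr2f2 and nr2f5 below it (33.2%). Between the mutants and UAS:Nr2f5 limma called 2 of 6 members, against 20.1% of all genes. Under the crest scaling it called 4 of 6 there (nr2f1a, nr2f2, nr2f5 and nr2f6a), all lower in the mutants, along with 6072 of 11753 genes. Between UAS:Nr2f5 and the control, where each group is 1 library and no test was made, 0 of 6 members were 2-fold apart on the log2(RPM + 1) scale, against 16.0% of all genes, and 4 of 6 lay below the control, against 57.6%. The comparisons with the control share that library, and those with UAS:Nr2f5 share that one.

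Counting intervals are narrow at these depths and were exceeded even between the mutants. The ratio of mutant 1 to mutant 2 lay outside counting error for 4 of 6 members, against 49.6% of all genes. For UAS:Nr2f5 against the control it did so for 5 of 6, against 57.4% of all genes, with nr2f6a higher and nr2f1a, nr2f1b, nr2f2 and nr2f6b lower. Against the control it did so for 4 of 6 members in mutant 1 (56.8% of all genes) and for 5 of 6 in mutant 2 (57.8%), and against UAS:Nr2f5 for 5 of 6 in mutant 1 (65.0%) and 4 of 6 in mutant 2 (65.3%). An interval that leaves out a ratio of 1 therefore marks a difference between libraries, not between genotypes.

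The spread of each member over the 4 libraries can be set beside that of other genes. From the lowest to the highest library, nr2f5 ranged over 1.25 on the log2(RPM + 1) scale, more than 74.8% of all tested genes. The range was 0.98 for nr2f1b, 0.79 for nr2f6b, 0.54 for nr2f2, 0.41 for nr2f1a and 0.35 for nr2f6a, and the median gene ranged over 0.82. Apart from nr2f5 and nr2f1b, the members were thus below the median gene in range. Their mean levels were above those of 72.8% (nr2f6b) to 95.9% (nr2f1a) of tested genes, and ranges were not set against genes of like level.

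**Figure D2:**
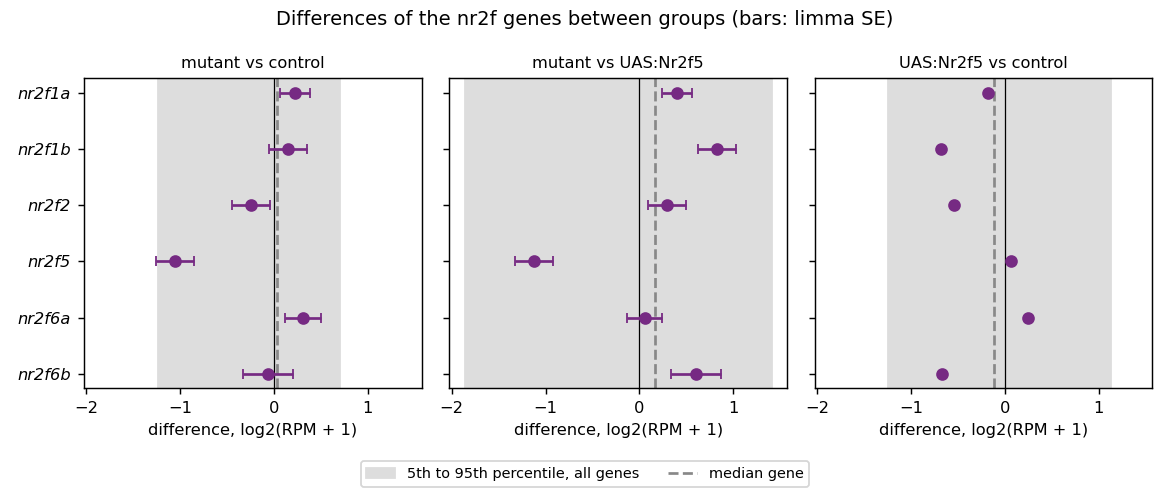
Difference of each nr2f gene between groups on the log2(RPM + 1) scale, for mutants against control, mutants against UAS:Nr2f5, and UAS:Nr2f5 against control. Bars are limma standard errors (none for the single libraries on the right), the grey band holds the central tested genes from the 5th to the 95th percentile, and the dashed line is the median gene. The point for nr2f5 lies at −1.05 and −1.12 in the mutant comparisons and at 0.07 for UAS:Nr2f5 against control.

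The make-up of the family's reads does not depend on how libraries are scaled, because the reads of 1 gene are set against those of the other 5 in the same library. For every 100 reads of the other 5 members, nr2f5 had 8.01 and 9.41 reads in the mutants, 19.8 in the control and 26.7 in UAS:Nr2f5. The mutants were low, the control lay between, and UAS:Nr2f5 was the highest. Relative to the control this ratio was 0.404 in mutant 1 (0.356 to 0.457), 0.474 in mutant 2 (0.413 to 0.543) and 1.34 in UAS:Nr2f5 (1.16 to 1.56). UAS:Nr2f5 and the control, within counting error of each other at nr2f5 in RPM, thus differed beyond counting error when nr2f5 was set against its own family.

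As a share of all family reads, nr2f5 made up 7.42% in mutant 1 (exact Clopper-Pearson interval 6.75 to 8.13), 8.60% in mutant 2 (7.74 to 9.53), 16.6% in the control (15.6 to 17.6) and 21.1% in UAS:Nr2f5 (19.0 to 23.2). None of these intervals for the mutants overlapped that of the control or UAS:Nr2f5, and the mutant intervals overlapped each other. Compared directly, the mutants still differed just beyond counting error. The read ratio of nr2f5 to the other members in mutant 1 was 0.85 of that in mutant 2 (0.73 to 0.99). A ratio within a library shows unequal change and does not show which gene moved.

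In the mutants the other 5 members lay nearer to their control ratios. The read ratio of nr2f2 to the rest, relative to the control, was 0.993 in mutant 1 (0.909 to 1.09), 0.709 in mutant 2 (0.638 to 0.787) and 0.779 in UAS:Nr2f5 (0.672 to 0.902), so that the mutants differed from each other beyond counting error. For nr2f1a it was 1.35 in mutant 1 (1.25 to 1.47), 1.295 in mutant 2 (1.18 to 1.42) and 1.09 in UAS:Nr2f5 (0.959 to 1.25). For nr2f6a it was 1.33, 1.36 and 1.52 in the same libraries, above the control in all 3. A fall in the share of nr2f5 raises every other ratio of this kind, including those of nr2f1a and nr2f6a in the mutants.

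In UAS:Nr2f5 the duplicates parted. There nr2f1b was at 0.701 of its control ratio (0.588 to 0.833), while nr2f1a was within counting error of its own. Likewise nr2f6b was at 0.708 (0.533 to 0.930), while nr2f6a was at 1.52 (1.27 to 1.83). This parting was not particular to UAS:Nr2f5. In mutant 1 nr2f1b was at 1.07 (0.969 to 1.18), below the 1.35 of nr2f1a. There nr2f6b was at 0.872 (0.742 to 1.025), below the 1.33 of nr2f6a. In mutant 2 nr2f1b was at 1.34 (1.205 to 1.49), near nr2f1a, and nr2f6b was at 1.13 (0.9525 to 1.335).

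**Figure D3:**
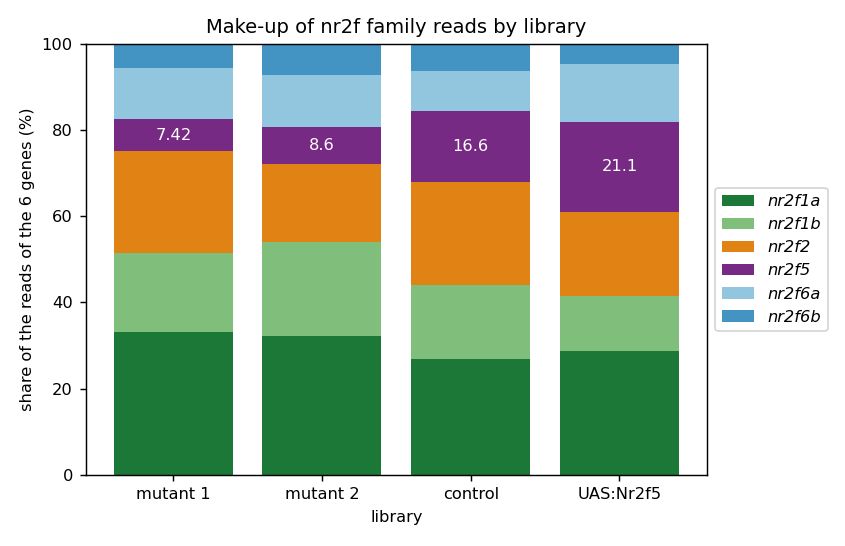
Share of the reads of the 6 nr2f genes taken by each gene, in percent, in the 4 libraries, with the share of nr2f5 printed in its segment. It was 7.42% and 8.60% in the mutants, 16.6% in the control and 21.1% in UAS:Nr2f5. Reads are not divided by gene length, so segments are compared across libraries and not within a bar.

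Summed over the family, levels in RPM were close between the mutants and the control and lower in UAS:Nr2f5. The 6 genes together gave 164 and 171 RPM in the mutants, 174 in the control and 144 in UAS:Nr2f5. Without nr2f5 the sums were 152 and 156 RPM in the mutants, 145 in the control and 114 in UAS:Nr2f5. The mutants were thus slightly below the control with nr2f5 and slightly above it without, and UAS:Nr2f5 was lowest either way. Under the crest scaling the difference of the whole sum to the control was −0.60 in the mutants and 0.36 in UAS:Nr2f5 on the log2(RPM + 1) scale, so that the order turned for UAS:Nr2f5.

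Reads shared between near-identical family members could blur these levels, and a sign of that was looked for. The value of every member in every library was a whole number of reads to within 0.0082 read, for 24 of 24 values. Of all tested genes, 87.3% had whole values in all 4 libraries within a tolerance of 0.02 read. No member therefore carried the fractional reads seen in the remaining genes, although reads assigned whole to the wrong duplicate would leave no such mark.

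Position sets the members apart from one another. In the RefSeq annotation of GRCz12tu the 6 genes lie on 6 different chromosomes, so none is a tandem copy of another. There nr2f1b and nr2f2 each overlap a long noncoding RNA gene, and nr2f6b overlaps a predicted protein-coding gene. Whether strand was used in counting is not given in the sources used here, so reads from such a partner and from the nr2f gene cannot be told apart.

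The flanking protein-coding genes, chosen by position after the table had been seen, were mostly near 0. For nr2f5, bola1 on one side was at 0.546 and 1.37 RPM in the mutants, 0.835 in the control and 0.790 in UAS:Nr2f5. On the other side rpz was at 1.09 and 1.01 RPM in the mutants, 1.47 in the control and 3.85 in UAS:Nr2f5. In the mutants bola1, which was below the filter and not tested, lay on either side of the control, and rpz differed from it by −0.27 on the log2(RPM + 1) scale (limma adjusted p = 0.819). For nr2f2, mctp2a and lysmd4 were at or under 1.1 RPM in all libraries but 1, mctp2a standing at 3.75 RPM in UAS:Nr2f5. Beside nr2f1b, the arrestin-domain gene arrdc3b was at 17.4 and 20.7 RPM in the mutants, 12.9 in the control and 7.31 in UAS:Nr2f5. Like nr2f1b, it was lowest in UAS:Nr2f5 in RPM, and it rose in the mutants against that library by 1.27 on the log2(RPM + 1) scale (limma adjusted p = 0.0175). There 11.2% of all tested genes were called higher. It was not followed under the crest scaling, where the rise of nr2f1b turned to −0.31. Against UAS:Nr2f5, fam172a beside nr2f1a (1.19, limma adjusted p = 0.0606) and tax1bp3 beside nr2f6b (−0.27, adjusted p = 0.76) were not called.

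Genes with the same shape over the libraries were named by the root-mean-square distance between log2(RPM + 1) profiles centred over the 4 libraries, among 4970 genes whose mean reached 5 RPM. Nearest to nr2f5 was ptprfb, a receptor tyrosine phosphatase gene, at a distance of 0.019, with 8.57 and 10.3 RPM in the mutants, 19.9 in the control and 21.7 in UAS:Nr2f5. Next came meis2b, a TALE homeobox gene, at 0.040, with 7.65 and 9.0 RPM in the mutants, 18.9 in the control and 20.5 in UAS:Nr2f5. The semaphorin gene sema5a followed at 0.065. Its level was 3.71 and 5.03 RPM in the mutants, 10.8 in the control and 10.2 in UAS:Nr2f5. All 3 profiles were low in both mutants and high in the other libraries, and each rests on 4 points.

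For nr2f2 the nearest genes were pcca, a mitochondrial carboxylase subunit (0.008), the splicing factor gene srsf2b (0.019) and mef2ca (0.023), a factor of jaw patterning downstream of Endothelin in zebrafish. The level of mef2ca was 6.07 and 4.76 RPM in the mutants, 6.85 in the control and 4.25 in UAS:Nr2f5. For nr2f1b they were anln, which encodes the cytokinesis protein anillin (0.006), ash2l, a histone methyltransferase subunit (0.011), and the Groucho-type corepressor gene tle3b (0.013). For nr2f1a they were cd164, a sialomucin gene (0.009), the ribosomal stalk gene rplp2l (0.015) and ACTN4, an alpha-actinin gene (0.019).

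For nr2f6a they were ctsla, a cathepsin gene (0.007), gmfb (0.010) and the chemokine gene cxcl12a (0.017), and for nr2f6b fbl, the nucleolar methyltransferase fibrillarin, and drap1 (both 0.017) and mark3b (0.025). Within the family the nearest pair was nr2f1b and nr2f6b, 0.112 apart, and not a duplicated pair. The duplicates nr2f1a and nr2f1b were 0.225 apart and nr2f6a and nr2f6b 0.343. Every distance from nr2f5 to another member was at least 0.628, the one to nr2f2, and all other pairs were 0.373 apart or less.

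**Figure D4:**
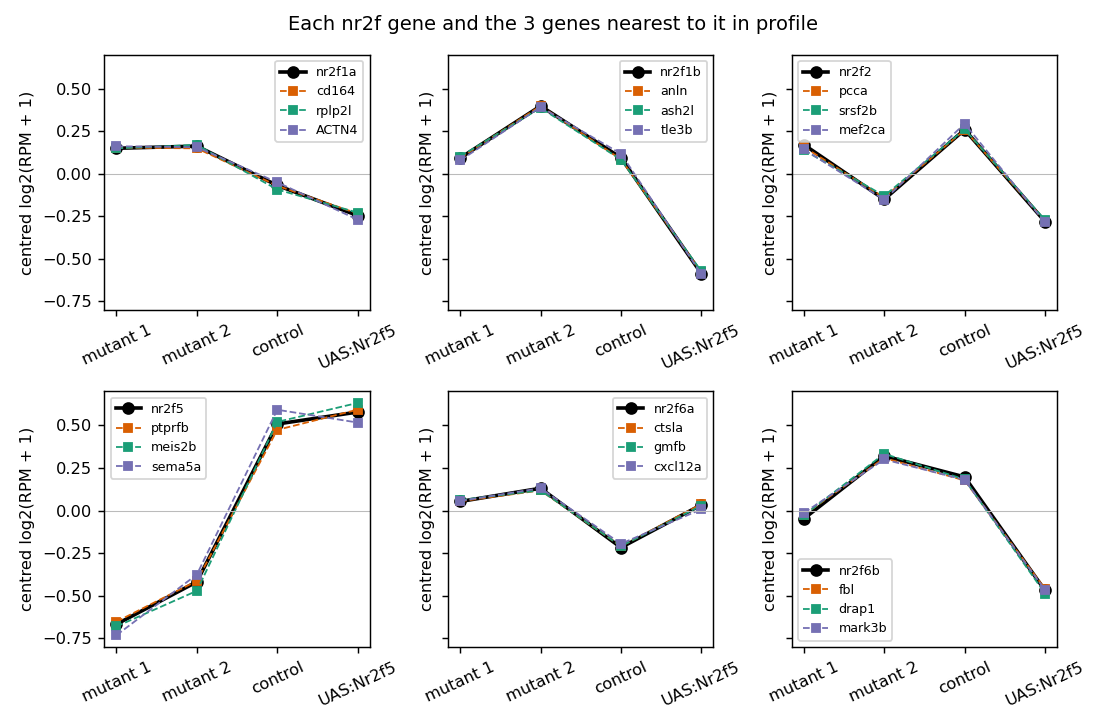
Profile of each nr2f gene (black) and of the 3 genes nearest to it, as log2(RPM + 1) centred over the 4 libraries. The nr2f5 panel has both mutants below its mean and the control and UAS:Nr2f5 above it, with ptprfb 0.019 away. On this scale nr2f1a, nr2f1b, nr2f2 and nr2f6b are lowest in UAS:Nr2f5, though not when scaled to the arch crest list.

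Partners and cofactors of the receptors were read from fixed lists. Of the Rxr genes, which encode dimer partners, 3 of 6 had a mean of at least 1 RPM, namely rxraa, rxrba and rxrbb. None was called by limma in either mutant comparison, where it called 1.04% of all genes against the control and 20.1% against UAS:Nr2f5. None had an unadjusted p under 0.05, against 13.2% and 37.4% of all genes in the same order. The level of rxrba was 17.5 and 18.2 RPM in the mutants, 15.9 in the control and 14.2 in UAS:Nr2f5, and that of rxraa 7.01 and 12.2 RPM in the mutants, 8.38 in the control and 5.43 in UAS:Nr2f5. The mutants differed more from each other at rxraa than either did from the control.

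Corepressor genes were all measured, 9 of 9. Between the mutants and the control limma called none of them, against 1.04% of all genes, and 1 had an unadjusted p under 0.05, against 13.2%. The gene ncor1, whose product bridges nuclear receptors to histone deacetylases, differed from the control by 0.05 on the log2(RPM + 1) scale (limma adjusted p = 0.952). Against UAS:Nr2f5, 2 of 9 were called, where limma called 20.1% of all genes, and both were higher in the mutants (11.2% of all genes). Those were sin3aa (0.89, limma adjusted p = 0.0363) and sin3b (0.88, adjusted p = 0.0274), scaffolds of a deacetylase complex. Genes outside the family were not followed singly under the crest scaling, which moved the median gene from 0.17 to −0.87 in this comparison. Of the 9 coactivator genes, which encode the Ncoa proteins, the p300 and Cbp acetyltransferases and Nsd1, limma called none in either comparison, with 0 of 9 at an unadjusted p under 0.05 against the control and 6 of 9 against UAS:Nr2f5, where 13.2% and 37.4% of all genes were.

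Zinc finger proteins that bind COUP-TFs in mammals are encoded by the bcl11 and zfpm genes, of which 6 of 7 matched the table and 4 were tested. The level of bcl11ab was 14.5 and 11.6 RPM in the mutants, 21.6 in the control and 20.3 in UAS:Nr2f5, a difference of −0.70 ± 0.22 (SE) to the control on the log2(RPM + 1) scale that did not pass (limma adjusted p = 0.238). That of bcl11aa was 16.5 and 10.8 RPM in the mutants, 18.5 in the control and 24.1 in UAS:Nr2f5 (limma adjusted p = 0.594 against the control). The 3 tested bcl11 genes lay below the control in both mutants. In mammals these genes act in neurons, and neuronal genes lay below the control in both mutants for 8 of 8 members, against 33.2% of all genes (median −1.92 on the log2(RPM + 1) scale). Of those, limma called elavl3. Tested muscle genes (11 of 11) and red blood cell entries (9 of 9) also lay below the control in both mutants. The part of any of these cells in the bcl11 levels was not tested.

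The cofactor gene zfpm1 was at 3.59 and 3.88 RPM in the mutants, 3.01 in the control and 0 in UAS:Nr2f5. Set against the 3 reads that a count of 0 allows there (0.296 RPM), it was at least 10.1-fold lower in UAS:Nr2f5 than in the control. It was called higher in the mutants than in UAS:Nr2f5 (limma adjusted p = 0.0141). Its paralogs zfpm2a and zfpm2b stayed under a mean of 1 RPM.

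Other receptors of the NR2 subfamily were few. Of 6 matched genes, nr2c1, nr2c2 and nr2e1 were tested and hnf4a, hnf4g and nr2e3 were near 0 (at most 2.57 RPM, nr2e3 in UAS:Nr2f5). The tailless gene nr2e1, which acts in forebrain and retina, was at 0.316 and 0.353 RPM in the mutants, 3.34 in the control and 5.23 in UAS:Nr2f5. It differed from the control by −1.70 ± 0.34 (SE) on the log2(RPM + 1) scale (limma adjusted p = 0.0976) and fell against UAS:Nr2f5 (−2.22, adjusted p = 0.0128). Retina and optic stalk genes were below the control in both mutants for 7 of 7 tested members, against 33.2% of all genes (median −1.54). The part of such cells in the nr2e1 levels was not tested. The levels of nr2c1 lay between 4.79 and 6.97 RPM in all libraries.

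Retinoic acid, to which nr2f genes respond, was read from the genes of its synthesis, breakdown, binding and receptors. Of 13 tested genes, limma called none between the mutants and the control (5 had an unadjusted p under 0.05, against 13.2% of all genes), where the list's median was 0.15 on the log2(RPM + 1) scale. Both mutants lay above the control for 6 of the 13 genes, against 39.1% of all genes, and below it for 3, against 33.2%. The receptor gene rargb was at 19.6 and 15.4 RPM in the mutants, 8.95 in the control and 4.84 in UAS:Nr2f5, and the synthetic enzyme gene aldh1a2 at 7.91 and 9.61, 4.71 and 3.55 RPM in the same order. Neither passed against the control (limma adjusted p = 0.188 and 0.349). Of those below the control in both mutants, rdh10a had the list's largest difference (−1.28, limma adjusted p = 0.164). The breakdown enzyme gene cyp26c1, at 2.33 and 4.72 RPM in the mutants, 6.98 in the control and 7.11 in UAS:Nr2f5, followed (−0.87, adjusted p = 0.457).

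Against UAS:Nr2f5, 5 of the 13 were called, against 20.1% of all genes, with the differences below on the log2(RPM + 1) scale. The 4 higher in the mutants (11.2% of all genes) were crabp2b (1.63, limma adjusted p = 0.00711), rargb (1.65, 0.0123), cyp26b1 (1.30, 0.0179) and rarga (0.87, 0.0303). The 1 lower (8.92% of all genes) was rdh10a, a retinol dehydrogenase gene, at 0.632 and 0.529 RPM in the mutants, 2.84 in the control and 3.75 in UAS:Nr2f5 (−1.59, adjusted p = 0.0283). The binding protein gene crabp2b was at 29.1 and 30.6 RPM in the mutants, 19.4 in the control and 8.99 in UAS:Nr2f5. Genes of the arch crest list were higher in the mutants than in UAS:Nr2f5 as well, with 8 of 10 called and a median of 1.35, and the part of this in the retinoic acid genes was not tested. The calls of the retinoic acid genes were not followed under the crest scaling either.

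**Figure D5:**
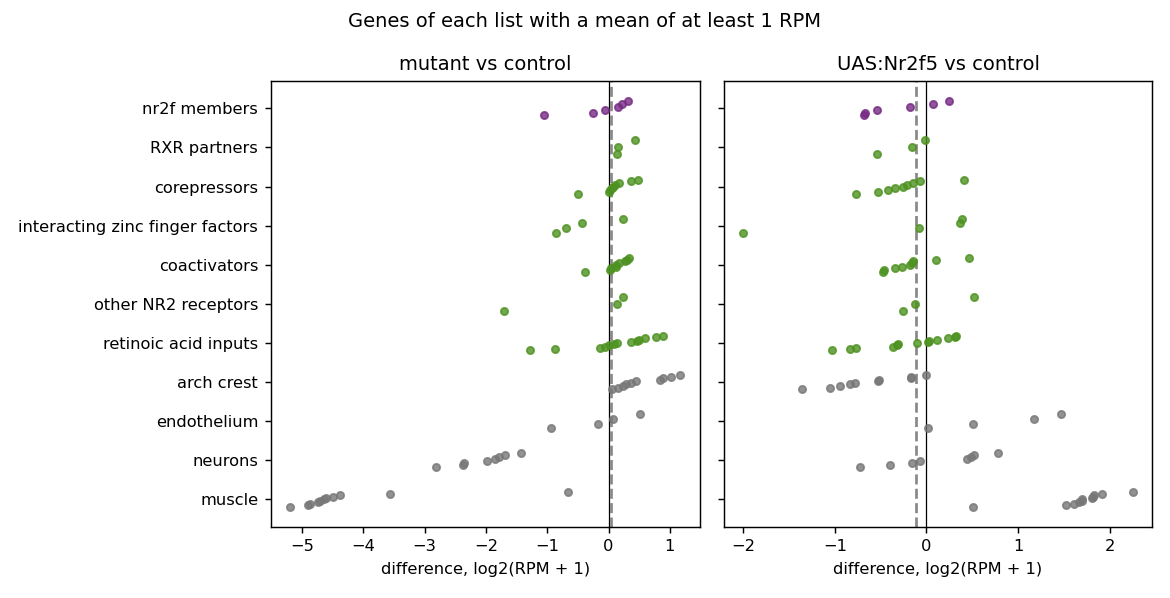
Difference of each tested gene (point) from the control on the log2(RPM + 1) scale, by list, for the mutants on the left and UAS:Nr2f5 on the right, with the nr2f genes in purple, cofactor and retinoic acid lists in green and cell type lists in grey. The dashed line is the median gene, at 0.03 on the left and −0.11 on the right. The nr2f points reach −1.05 on the left (nr2f5), while muscle genes have a median of −4.64 on the left and 1.70 on the right.

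Vessels carry fli1a:GFP and can express nr2f2, so endothelial genes were set beside it. The endothelial list summed to 9.43 and 14.7 RPM in the mutants, 15.2 in the control and 32.8 in UAS:Nr2f5, and the venous and lymphatic list to 22.4 and 17.3, 27.5 and 26.6 RPM in the same order. Most of the latter was ephb4a, at 17.6 and 13.3, 14.2 and 15.6 RPM. Of the 4 tested venous and lymphatic genes, 3 lay below the control in both mutants, against 33.2% of all genes (median −0.91). Among them stab2 was at 0.316 and 0.132 RPM in the mutants, 2.6 in the control and 3.06 in UAS:Nr2f5. The endothelial gene erg was at 0 in both mutants and in UAS:Nr2f5, and kdrl, the endothelial receptor gene, was at 5.06 and 7.50 RPM in the mutants, 5.81 in the control and 17.9 in UAS:Nr2f5. In RPM, the endothelial list was thus highest in the library where nr2f2 was lowest. The venous and lymphatic list was nearly level between the control and UAS:Nr2f5, at 27.5 and 26.6 RPM, where nr2f2 was at its highest and its lowest. The arterial list summed to 48.5 and 49.7 RPM in the mutants, 100 in the control and 96.6 in UAS:Nr2f5. Most of it in the last 2 libraries was notch1b (70.5 and 71.8 RPM). A slightly higher sum in the control than in UAS:Nr2f5 was thus not particular to venous genes. In the mutants notch1b was at 13.3 and 12.7 RPM, a difference of −2.35 to the control on the log2(RPM + 1) scale, which limma called. The rest of the arterial list did not share that fall. Of its 5 tested genes, 3 lay above the control in both mutants, against 39.1% of all genes, and the list's median was 0.19. The part of vessel cells in the nr2f2 levels was not tested.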

How the data were processed

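RNA of sorted arch cells was sequenced as 75-bp paired ends from SMARTer cDNA, per the labels' protocols. The submitters' processing notes name TopHat2, Partek and GRCz10, with no versions or annotation. The deposited values, named TPM by the authors, were taken unchanged as RPM, and how the authors scaled them is not given in the sources used here: in each library 88.4% to 94.0% of values worth 0.5 to 1000 reads are whole multiples (within 0.02) of 1 step, whatever the gene. The columns sum to 14.8% to 15.8% of 1000000, and no column of values was left unassigned. Since the rest are fractional, no count model was fitted.

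limma 3.58.1 (R 4.3.3) was fitted to log2(RPM + 1) for the 11391 genes averaging 1 RPM or more, with 1 mean per group, an intensity trend, Benjamini-Hochberg adjustment over all of them and a threshold of 0.05. Spread is estimated from the mutant pair (1 residual degree of freedom) and assumed to be alike in the unreplicated groups. The fit was tested on simulated data drawn with the same spread in every library, which could not test that assumption. Single libraries were compared by size (2-fold) and by exact Clopper-Pearson intervals (scipy 1.17.1) on the rounded implied reads; intervals and limits for 0 reads cover counting error only. PCR reads without molecular identifiers are not independent molecules.

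Members and lists were chosen with earlier results of these data known. Of the members, all were named. For each of them the 3 nearest profiles were named (mean of at least 5 RPM, symbols without a colon), and from each list the genes called and up to 4 others with the largest differences, with defining markers at 0. The gene ncor1 was named after its values were seen. Alternatives were other pseudocounts, filters and scalings, no trend, and leaving out libraries. Sequences were not used here.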

Additional observations from a re-analysis of the deposited data

How the results depend on the processing

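Against the control and against UAS:Nr2f5, nr2f5 kept its sign in the mutants in every alternative run (−1.18 to −0.93 and −1.25 to −1.0 with 1 mutant left out, −1.56 and −2.25 under the crest scaling below, on the log2(RPM + 1) scale). Its difference to the control (−1.05) gained its call without genes under a mean of 5 and, in an alternative chosen after seeing the data, without the UAS:Nr2f5 library, and its difference to UAS:Nr2f5 (−1.12) lost its call without a filter and without a trend. In all, 206 values were recomputed for the members, the family sum and the ratio of nr2f5 to the other members. Of these, 172 kept their direction and call or moved within their spread. With 1 mutant left out, the shift is by construction smaller than the SD of the mutants, so those values could hardly count as moved. At nr2f6b the difference to the control turned from −0.06 to 0.12 without mutant 1, and at nr2f1b from 0.15 to −0.0024 without mutant 2. Both still counted as kept. Changing the filter, the trend or the unreplicated library fitted left each member's difference as it was, so there only the call could change.

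Scaling to the arch crest list moved the median gene from 0.03 to −0.41 for mutants against control, from 0.17 to −0.87 for mutants against UAS:Nr2f5 and from −0.11 to 0.46 for UAS:Nr2f5 against control. It turned nr2f1a (−0.31), nr2f1b (−0.38) and nr2f6a (−0.21) in the first, and nr2f1a (−0.76), nr2f1b (−0.31), nr2f2 (−0.86), nr2f6a (−1.07) and nr2f6b (−0.46) in the second, where nr2f1a, nr2f2 and nr2f6a gained limma's call as lower in the mutants (adjusted p = 0.0189, 0.0325 and 0.0144). It put nr2f5 at 0.69 in the third. Against UAS:Nr2f5, nr2f6a also turned when rescaled to 1 sum (−0.0067), by median ratios (−0.10) and to 1 sum without marker genes (−0.065). The family sum, −0.06 against the control, was −0.11 at 1 sum, −0.13 without markers and −0.60 under the crest scaling. Against UAS:Nr2f5 it was 0.22, and 0.15, 0.050 (median ratios), 0.088 and −0.96. For UAS:Nr2f5 against control it was −0.27, and −0.14 by median ratios and 0.36 under the crest scaling.

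Counts over all genes moved more. For mutants against control limma called 118, and 22 with a pseudocount of 0.1, 0 without a filter, 413 at a mean of 5, 54 by median ratios, 74 without markers, 30 under the crest scaling, 24 without a trend and 646 without the UAS:Nr2f5 library. For mutants against UAS:Nr2f5 it called 2287, and 1449 with a pseudocount of 0.1, 0 without a filter and 6072 under the crest scaling. Genes 2-fold apart from the control in both mutants numbered 676, and 1164 and 154 with pseudocounts of 0.1 and 5, 219 at a mean of 5 and 929 to 1145 with 1 mutant left out. Against UAS:Nr2f5 they numbered 2143, and 492 with a pseudocount of 5, 668 at a mean of 5 and 4427 under the crest scaling. For UAS:Nr2f5 against control they numbered 1818, and 2922 and 212 with those pseudocounts, 484 at a mean of 5 and 3160 under the crest scaling. The causes were not tested. No paired analysis was possible, because the labels do not pair any mutant library with the control or UAS:Nr2f5 library. The 67 reads of nr2f6b in UAS:Nr2f5 set the widest counting interval relative to its level.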
